A study of Mus musculus with 9 samples.

Results

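Transcripts were compared between Pax3-GFP positive cells in which the oncogenic fusion PAX3-FKHR had replaced Pax3 and the same sorted cells of embryos that kept 1 intact Pax3 allele. The comparison used 6 of the 9 arrays of the series, 3 of PAX3-FKHR/GFP and 3 of GFP/+ embryos. It took in every probe set that is not an Affymetrix control, 45037 of 45101, and 18193 named genes, each read from a single probe set. Cells of both groups came from the hypaxial part of the dermomyotome of interlimb somites, dissected from mouse embryos at E9.5 and sorted by GFP fluorescence. A protocol label speaks of limb buds instead, and the samples were taken as somite cells from their titles, source and tissue.

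In GFP/+ embryos 1 Pax3 allele carried GFP in place of Pax3 and the other was intact. The second allele of PAX3-FKHR/GFP embryos produced PAX3-FKHR with a nuclear lacZ reporter, so these cells had no intact Pax3 allele, and neither group was wild type. By the study's methods the fusion allele was conditional and was opened by PGK-Cre, a ubiquitous Cre transgene brought in by the GFP/+ mothers. It was therefore not limited to the somite, and the mice had a C57 BL6/DBA2 background. Tissue of many embryos of a genotype was combined, so each array is a pool and not an animal, and a p-value here speaks of the spread among pools. The samples are called fusion 1 to 3 and GFP/+ 1 to 3 where 1 of them was left out. GFP- cells, the remaining group of the series, are cited as a level only, since their comparison would share the GFP/+ arrays.

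Pax3 binds DNA through a paired domain and a homeodomain, and it marks the dermomyotome, the dorsal epithelial sheet of each somite that gives rise to skeletal muscle progenitors. Progenitors at its hypaxial edge remain proliferative while they express Pax3, and those that enter the myotome switch on myogenic factors and then the contractile proteins. PAX3-FKHR keeps both DNA binding domains of PAX3 and gains the strong activation domain of the forkhead factor FKHR, also called FOXO1. In rhabdomyosarcoma the fusion acts as an activator at sites that Pax3 also uses.

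The targeted gene was examined first. The brightest Pax3 probe set had log2 values of 8.25, 8.31 and 8.30 in PAX3-FKHR/GFP samples, against 9.06, 9.29 and 9.24 in GFP/+ samples. All fusion samples lay below all GFP/+ samples, by 0.91 on the log2 scale at the mean (SE 0.084, adjusted p = 0.000215 with limma). The 2 other Pax3 probe sets also fell, by 0.81 and 0.79 (adjusted p = 0.00197 and 0.0164). Which part of the transcript these probes cover, and whether they read the fusion transcript, was not examined. The study states that PAX3-FKHR/GFP embryos do not transcribe the mouse Pax3 gene. The brightest probe set still averaged 8.29 in fusion cells, against 4.5 in GFP- cells. By that statement the fall of 0.91 is not the size of the Pax3 loss. Foxo1 was not called by its brightest probe set (0.15 ± 0.080, adjusted p = 0.585). A further Foxo1 probe set stood at the fold limit without a call (0.50 ± 0.105, adjusted p = 0.0429). The remaining ones were at 0.27 and 0.07, also not called. Whether any of them reads the fusion transcript was not examined. The arrays of a group correlated at 0.996 to 0.998 over probe sets, and arrays of different groups at 0.994 to 0.996. Their medians lay between 4.63 and 4.68, after processing that brings arrays to 1 distribution. The number of arrays, 3 a group, limits the precision.

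A gene was called when its adjusted p was under 0.05 and its log2 difference at least 0.5, or 1.41-fold. The study's methods state this adjusted p and log2 limit, and give the latter as a fold change of 1.5. By limma with Benjamini-Hochberg adjustment, 238 of 18193 genes (1.31%) were higher with PAX3-FKHR and 130 (0.715%) were lower, 368 (2.02%) in all. Of these, 71 rose and 27 fell at least 2-fold. Over probe sets, 398 of 45037 (0.884%) were higher and 213 (0.473%) lower. The 3 values of the fusion group all lay above those of GFP/+ in 7.67% of genes and all below in 6.89%, so lack of overlap alone is common at this group size. The number of genes called fell by more than 1.5 times when certain samples were left out. Without fusion 2 it was 148 higher and 80 lower. It was 157 and 82 with GFP/+ 2 left out, and 83 lower with GFP/+ 3 left out.

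**Figure D1:**
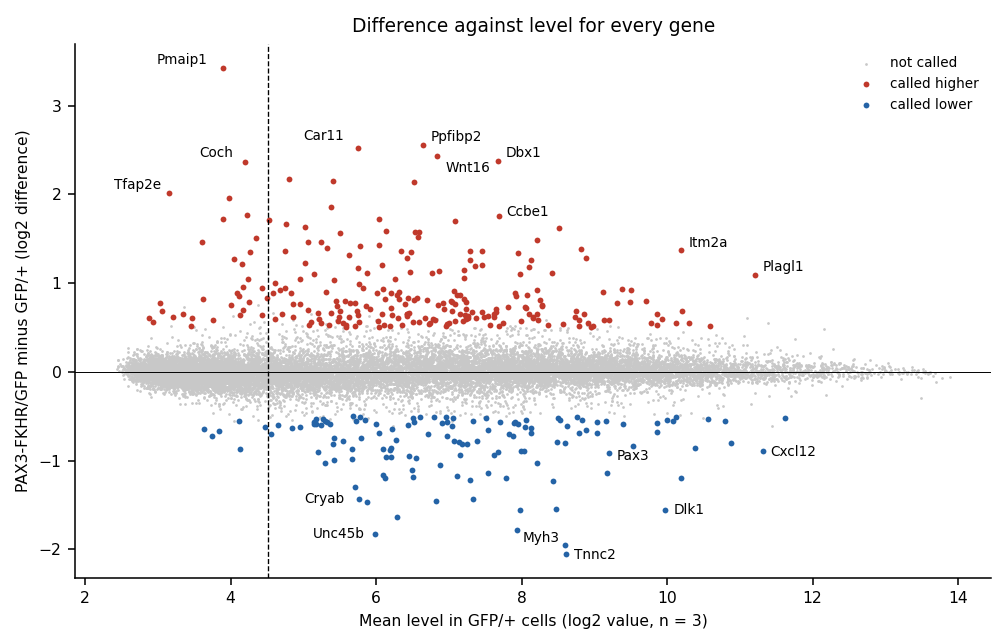
Log2 difference between PAX3-FKHR/GFP and GFP/+ cells (vertical axis) against the mean log2 value in GFP/+ cells (horizontal axis) for every gene, with genes called higher in red and lower in blue. The dashed line marks 4.51, the 95th percentile of 39 olfactory receptor genes. Rises reach 3.42 (Pmaip1) and falls -2.05 (Tnnc2), and the differences of bright genes are small apart from a few such as Plagl1, Itm2a and Cxcl12.

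The largest rises were shared among genes of unlike function. Pmaip1, which encodes the pro-apoptotic protein Noxa, had log2 values of 7.18, 7.45 and 7.32 with PAX3-FKHR and 3.77, 3.93 and 3.99 in GFP/+ cells (difference 3.42 ± 0.10). Ppfibp2, an adaptor of the liprin family, had 9.07, 9.19 and 9.32 against 6.67, 6.60 and 6.65 (2.55 ± 0.085). Car11, a carbonic anhydrase relative without enzyme activity, had 8.14, 8.10 and 8.59 against 5.65, 5.83 and 5.77 (2.53 ± 0.12). In each of these genes the groups stood far apart relative to their spread, and the lowest fusion sample of Car11 was still over 2 log2 units above the highest GFP/+ sample.

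Wnt16, a secreted Wnt ligand, had log2 values of 9.19, 9.27 and 9.36 with the fusion and 6.62, 6.99 and 6.92 without (difference 2.43 ± 0.10). Dbx1, a homeobox gene of spinal interneuron progenitors, had 9.89, 10.10 and 10.17 against 7.76, 7.63 and 7.65 (2.38 ± 0.091). Coch, which encodes the secreted protein cochlin, had 6.21, 6.39 and 7.10 against 4.38, 4.05 and 4.19 (2.36 ± 0.20). Coch was the most variable of the 6, because fusion 3 stood well above the other 2, yet none of its values overlapped. In GFP- cells Dbx1 averaged 4.87 and Wnt16 4.90, below both groups, whereas Ppfibp2 averaged 7.62, between the 2 groups.

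**Figure D2:**
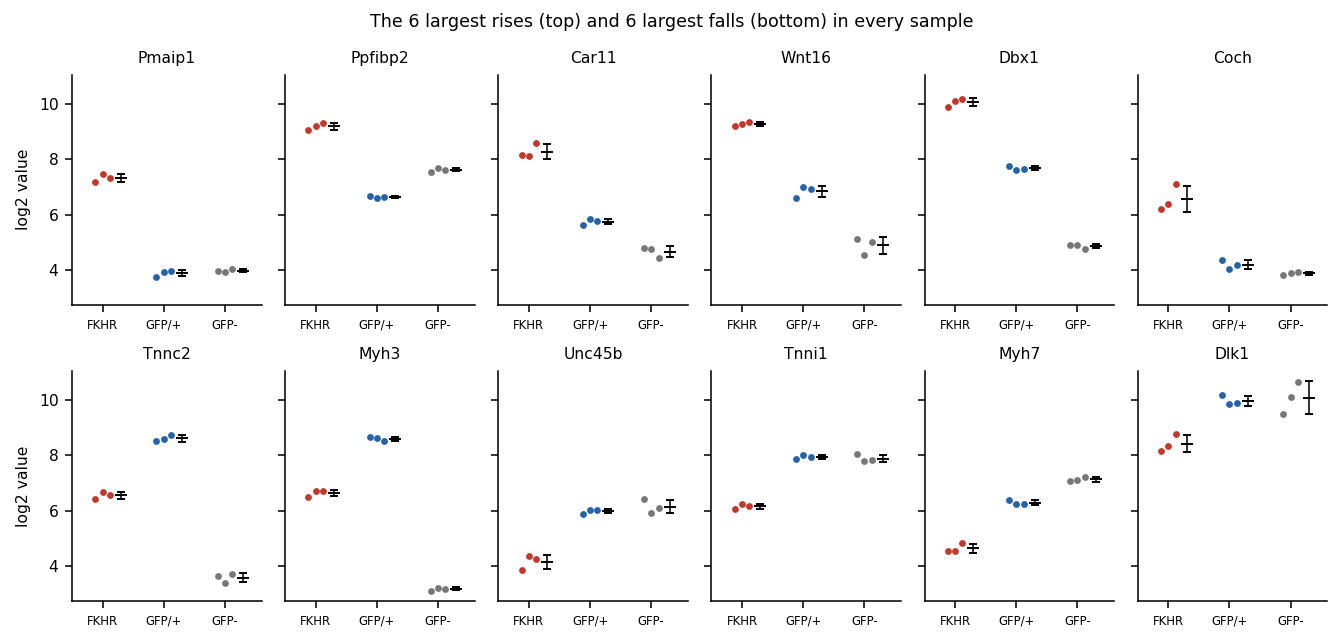
Log2 value in each PAX3-FKHR/GFP (FKHR, red), GFP/+ (blue) and GFP- (grey) sample for the 6 largest rises (top row) and the 6 largest falls (bottom row), with the mean and SD of n = 3 in black. The red and blue points of all 12 genes are apart, and Unc45b, Tnni1, Myh7 and Dlk1 are about as bright in GFP- as in GFP/+ cells or brighter, with GFP- means of 6.15, 7.89, 7.14 and 10.09.

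The next rises by size were spread over secreted factors, receptors and enzymes. Among secreted proteins were Gdnf, a neurotrophic factor that signals through the Ret receptor (1.72 ± 0.10), Ccbe1, which assists lymphatic growth through VEGF-C (1.76 ± 0.093), and Crtac1, a cartilage matrix protein (1.71 ± 0.16). C1qtnf3, an adipokine related to C1q (1.58 ± 0.10), Angptl1, an angiopoietin-like protein (1.56 ± 0.10), and Npnt, the integrin ligand nephronectin (1.46 ± 0.099), rose as well. Fgf5, Fgf8 and Dkk2, the last a modulator of Wnt receptors, completed the secreted proteins (1.96 ± 0.10, 1.46 ± 0.19 and 1.51 ± 0.12). Gdnf averaged 3.89 in GFP/+ and 5.61 in fusion cells, and 6.39 in GFP- cells. Npnt likewise stood highest in GFP- cells, at 7.91 against 5.25 and 6.71. A further Npnt probe set was called (1.70 ± 0.11), while those at 0.15, 0.08 and 0.07 were not. The other Fgf5 probe set, of like level in GFP/+ cells, was not called (0.14 ± 0.099).

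Membrane proteins and intracellular regulators followed. Npr3, the clearance receptor of natriuretic peptides, had log2 values of 7.54 to 7.93 with the fusion and 6.0 to 6.06 in GFP/+ cells (difference 1.72 ± 0.10). Gpr155, an orphan receptor (1.77 ± 0.14), Alcam, an adhesion molecule of the immunoglobulin superfamily (2.15 ± 0.11), and Met, the receptor of hepatocyte growth factor (1.70 ± 0.086), also rose. Of the 5 Alcam probe sets 4 were called higher. For Met the dimmer of 2 probe sets was not called (0.08 ± 0.083), nor was the dimmer probe set of Capn6, a calpain without protease activity (2.14 ± 0.11 for the brighter, 0.45 ± 0.092 for the dimmer). Egln3, a prolyl hydroxylase that marks hypoxia inducible factors for degradation, rose 3.64-fold (1.86 ± 0.11). Mgat4a (2.17 ± 0.12) and Sec1 (1.59 ± 0.11) encode glycosyltransferases, and Sowahb is an ankyrin repeat gene (1.48 ± 0.10). The dimmer Mgat4a probe set was not called (0.06 ± 0.084).

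Transcription and RNA regulators among the 30 largest rises were Tfap2e, an AP-2 factor (2.01 ± 0.10), Prrxl1, a paired-like homeobox gene of sensory neurons (1.67 ± 0.11), Hoxa11 (1.63 ± 0.11), Etv5, an ETS factor (1.58 ± 0.096), and Mbnl3, a muscleblind splicing regulator (1.52 ± 0.099). Mbnl3 was called by all 3 of its probe sets. Spry1, a feedback inhibitor of receptor tyrosine kinases, rose from 8.51 to 10.14 (1.62 ± 0.089), and it was among the brighter of these genes. The calls of all 30 held when any 1 of the 6 samples was left out.

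The upstream sequences of the largest rises are shown to put the paired domain letters GTCACG in view, since Pax3 and the fusion share the paired domain. Sequences were taken from RefSeq, GRCm38.p6, as the 250 bases before the start of transcription, read 5′ to 3′ along the gene. Of the 10 largest rises, 4 held GTCACG or its reverse complement there, and these 4 are printed because they do, with the matches in capitals. Ppfibp2 lies at chr7:107606594-107606843 on the plus strand. Wnt16 lies at chr6:22287977-22288226 on the plus strand. Alcam lies at chr16:52453082-52453331 on the minus strand, and Capn6 lies at chrX:143827413-143827662 on the minus strand.
Ppfibp2: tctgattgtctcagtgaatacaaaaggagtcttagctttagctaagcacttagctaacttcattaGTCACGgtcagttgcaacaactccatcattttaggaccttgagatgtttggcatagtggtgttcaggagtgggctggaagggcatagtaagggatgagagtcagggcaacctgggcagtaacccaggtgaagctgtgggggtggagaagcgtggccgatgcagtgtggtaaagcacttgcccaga
Wnt16: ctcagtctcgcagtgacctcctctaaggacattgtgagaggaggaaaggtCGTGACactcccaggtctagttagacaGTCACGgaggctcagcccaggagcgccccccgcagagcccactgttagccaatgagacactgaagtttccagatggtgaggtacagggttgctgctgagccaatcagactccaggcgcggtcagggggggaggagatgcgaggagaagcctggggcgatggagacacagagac
Alcam: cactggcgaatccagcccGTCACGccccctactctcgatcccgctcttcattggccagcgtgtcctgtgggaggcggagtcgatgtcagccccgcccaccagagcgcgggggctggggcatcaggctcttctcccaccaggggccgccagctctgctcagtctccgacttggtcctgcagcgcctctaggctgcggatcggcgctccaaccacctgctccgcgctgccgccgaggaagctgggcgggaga
Capn6: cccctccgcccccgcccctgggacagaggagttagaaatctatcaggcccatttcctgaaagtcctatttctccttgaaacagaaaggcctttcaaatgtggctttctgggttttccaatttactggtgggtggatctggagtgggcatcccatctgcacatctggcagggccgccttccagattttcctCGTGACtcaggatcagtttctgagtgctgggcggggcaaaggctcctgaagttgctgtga
The match began 185, 232 and 60 bases before the start in Ppfibp2, Alcam and Capn6. Wnt16 held 2 matches, the first of which began 200 bases before the start.

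Over all genes the same letters were common. GTCACG was found on either strand upstream of 11.1% of the 14368 genes with an entry, of 31 of 192 risen genes (16.1%) and of 13 of 98 fallen genes (13.3%). The second paired domain form, TCACGC, which overlaps the first by 5 letters, was found in 8.83% of all, 10.9% of risen and 8.16% of fallen genes. The forkhead letters GTAAACA were found in 3.02%, 3.65% and 4.08%. The homeodomain palindrome TAATNNNATTA was found in 0.285% of all, 0 of 192 risen and 1.02% of fallen genes. The ETS letters GGAAGT were found in 24.5% of all, 18.2% of risen and 15.3% of fallen genes. The AP-1 letters TGACTCA were found in 4.73%, 4.69% and 2.04%. Risen genes had 1.36 annotated starts on average against 1.25 over all genes, which gives them more sequence to match. These shares are descriptions of 7 motifs chosen with the results known, and a match is not a binding site.

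The E-box CAGCTG, a form that myogenic factors bind, is shown for the falls. It was found upstream of 14.9% of all genes, 17.7% of risen genes and 26 of 98 fallen genes (26.5%). Among the 10 largest falls Tnni1, slow skeletal troponin I, and Acta1, skeletal alpha actin, held it, and they are printed for that reason with the E-box in capitals. Tnni1 lies at chr1:135799171-135799420 on the plus strand, and Acta1 lies at chr8:123894776-123895025 on the minus strand. Tnni1 has a further annotated start whose upstream bases overlap these.
Tnni1: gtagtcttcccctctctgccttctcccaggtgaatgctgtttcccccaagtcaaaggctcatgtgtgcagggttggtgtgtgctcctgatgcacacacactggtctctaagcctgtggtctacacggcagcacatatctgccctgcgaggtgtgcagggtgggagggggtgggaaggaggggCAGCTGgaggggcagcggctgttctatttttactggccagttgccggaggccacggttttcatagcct
Acta1: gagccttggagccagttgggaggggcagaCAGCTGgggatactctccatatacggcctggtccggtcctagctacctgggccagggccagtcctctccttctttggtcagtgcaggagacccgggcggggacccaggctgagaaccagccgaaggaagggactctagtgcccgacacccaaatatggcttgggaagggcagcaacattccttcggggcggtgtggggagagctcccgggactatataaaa
The E-box began 68 bases before the start of Tnni1 and 221 bases before that of Acta1.

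The largest falls were led by genes of the contractile apparatus. Tnnc2, fast troponin C, had log2 values of 6.43, 6.68 and 6.58 with PAX3-FKHR and 8.51, 8.60 and 8.73 in GFP/+ cells (difference -2.05 ± 0.093). Myh3, the embryonic myosin heavy chain, had 6.5, 6.72 and 6.72 against 8.67, 8.61 and 8.53 (-1.96 ± 0.088). Both were far lower still in GFP- cells, at means of 3.59 and 3.19, so the fusion cells lay between the other groups.

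Unc45b, a chaperone that folds myosin, had log2 values of 3.88, 4.37 and 4.25 with the fusion and 5.90, 6.05 and 6.03 without (difference -1.83 ± 0.13). Tnni1 had 6.05, 6.26 and 6.17 against 7.87, 8.0 and 7.94 (-1.78 ± 0.085), and Myh7, slow myosin heavy chain, 4.56, 4.56 and 4.84 against 6.39, 6.24 and 6.24 (-1.64 ± 0.10). The values of these 3 genes in fusion cells were lower than in both GFP/+ and GFP- cells.

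Not all large falls were muscle structural genes. Dlk1, an imprinted transmembrane protein related to Notch ligands, had log2 values of 8.17, 8.33 and 8.78 against 10.19, 9.86 and 9.89 (difference -1.56 ± 0.15). Slc15a2, a peptide transporter (-1.47 ± 0.15), Clstn2, a synaptic calsyntenin (-1.45 ± 0.084), Scube2, a secreted protein that helps release Hedgehog ligands (-1.43 ± 0.12), and Hoxb1 (-1.22 ± 0.12) fell. So did Cavin2, a component of caveolae (-1.19 ± 0.11), Sparcl1, a matrix glycoprotein (-1.14 ± 0.078), Cacna2d1, a calcium channel subunit (-1.11 ± 0.12), and Mamdc2, a matrix proteoglycan (-1.05 ± 0.10). The second probe set of Clstn2 was not called (-0.30 ± 0.12). Averaged over their probe sets, Slc15a2 and Cacna2d1 were under the fold limit (-0.46 and -0.47).

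Cryab, a small heat shock protein of muscle (-1.43 ± 0.19), Acta1 (-1.55 ± 0.090), Tnnc1 (-1.55 ± 0.097), Tnnt2 (-1.19 ± 0.10), Myl1 (-1.29 ± 0.093), Myl4 (-1.17 ± 0.15), Mylpf (-1.13 ± 0.086) and Ttn (-1.18 ± 0.10) encode sarcomere proteins or their chaperones. The myogenic factors Myog (-1.23 ± 0.10) and Myf6 (-1.18 ± 0.084) fell with them. Acta2, smooth muscle actin, fell by 1.20 (SE 0.080), but its probe set can be shared between transcripts and its 2 other probe sets, both dim, were not called. Averaged over probe sets Acta2 and Ttn were under the fold limit (-0.48 and -0.45). The calls of all 25 largest falls held when any 1 sample was left out. In sorted bulk cells fewer cells of a type and less RNA per cell cannot be told apart.

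The level from which a gene rose was set against that of olfactory receptors, which somite cells should not express. Their 39 measured genes had a median log2 value of 3.40 in GFP/+ cells and a 95th percentile of 4.51, and 0 were called. Of the 238 risen genes, 32 (13.4%) started at or under 4.51, against 34.3% of all genes, and 8 of the 30 largest rises were among them. Those 8 were Pmaip1, Coch, Tfap2e, Fgf5, Gpr155, Gdnf, Dkk2 and Fgf8. Of the 130 fallen genes 17 (13.1%) ended at or under that level. Because dim signal compresses differences, a fold from such a level may understate the change. The median level in GFP/+ cells was 6.45 for risen, 7.05 for fallen and 5.89 for all genes.

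Some of the risen genes lay next to each other in the genome. With the 18027 genes that could be placed put in the order of the GRCm38.p6 annotation, 20 of 238 risen genes (8.40%) were directly adjacent to another risen gene, against 449 of 17789 other genes (2.52%). Among the 30 largest rises 6 had a risen neighbour (20%), and 8 had one within 2 places. Of the fallen genes 11 of 130 (8.46%) adjoined another fallen gene, against 1.37% of the others. Leaving out 1 sample gave 10 to 22 adjacent risen genes. It gave 2 to 10 adjacent fallen genes, with 4 without fusion 2, 4 without GFP/+ 2 and 2 without GFP/+ 3. The risen genes came to 12 without fusion 2 and 10 without GFP/+ 3. The neighbours were picked out after their values were seen, and the counts are given as a description without a test.

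The longest run was that around Car11. Sec1 (1.59 ± 0.11), Ntn5, a netrin family member (1.36 ± 0.075), Car11 and Dbp, a circadian transcription factor (1.27 ± 0.086), followed each other and all rose (adjusted p 3.29e-05, 7.68e-06, 4.95e-06 and 2.53e-05). Ntn5 had log2 values of 7.68, 7.73 and 7.73 with the fusion against 6.36, 6.39 and 6.30, and Dbp 9.24, 9.51 and 9.42 against 8.13 in each GFP/+ sample. The flanking genes Fut2 (-0.07 ± 0.12) and Sphk2 (0.16 ± 0.087) were not called. Sec1 and Ntn5 overlap in the annotation, so whether their probe sets read separate transcripts is uncertain.

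Pmaip1, the largest rise, adjoined Ccbe1, whose log2 values were 9.29, 9.41 and 9.62 with PAX3-FKHR and 7.70, 7.68 and 7.68 in GFP/+ cells. The measured genes on either side, Lman1 (-0.07 ± 0.080) and Gm19784 (0.03 ± 0.10), stayed near 0. Fgf5 adjoined Prdm8, a histone methyltransferase relative of neurons (0.94 ± 0.12), and Rasgef1b, a Ras exchange factor, rose 4 places on (1.35 ± 0.11). Prdm8 was brightest in GFP- cells, with a mean of 7.17 against 4.44 in GFP/+ and 5.38 in fusion cells.

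Ppfibp2 adjoined Olfml1, an olfactomedin-like protein (0.60 ± 0.12, adjusted p = 0.0366). Olfml1 was not called without fusion 1, 2 or 3 or GFP/+ 1 or 3 (adjusted p 0.11 to 0.205). On the X chromosome Stk26, a Ste20 family kinase (1.36 ± 0.12), lay 2 places from Mbnl3, with Rap2c (0.08 ± 0.091) between them. Chrdl1, a BMP antagonist, and Capn6 stood as near to each other (1.05 and 2.14). Further adjacent pairs included Fap with Ifih1, Dmrta2 with Elavl4, Slc6a15 with Tmtc2, and Lin7a with Myf5. Among falls they included Mybph with Myog, Dlk1 with Meg3, Mef2c with C130071C03Rik, Tmem182 with Pantr1, and the Hoxc8, Hoxc6 and Hoxc5 run. Of these pairs Ifih1, Dmrta2, Slc6a15, Tmtc2, Lin7a, Meg3, C130071C03Rik, Tmem182, Hoxc8 and Hoxc5 all lost their calls without GFP/+ 3, and all but Ifih1 and C130071C03Rik also without fusion 2. Over the samples whose omission cost a call, the adjusted p ran from 0.00758 for Meg3, where the size of the fall was too small, to 0.269 for Tmtc2. Averaged over probe sets Lin7a (0.44), Tmtc2 (0.36), Mef2c (-0.47), C130071C03Rik (-0.21), Hoxc6 (-0.41), Hoxc5 (-0.36) and Meg3 (-0.48) were not called. Slc6a15 (3.35 in GFP/+ and 4.0 in fusion cells) and Ifih1 (3.76 and 4.34) stayed under 4.51, the olfactory receptor percentile, in both groups.

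**Figure D3:**
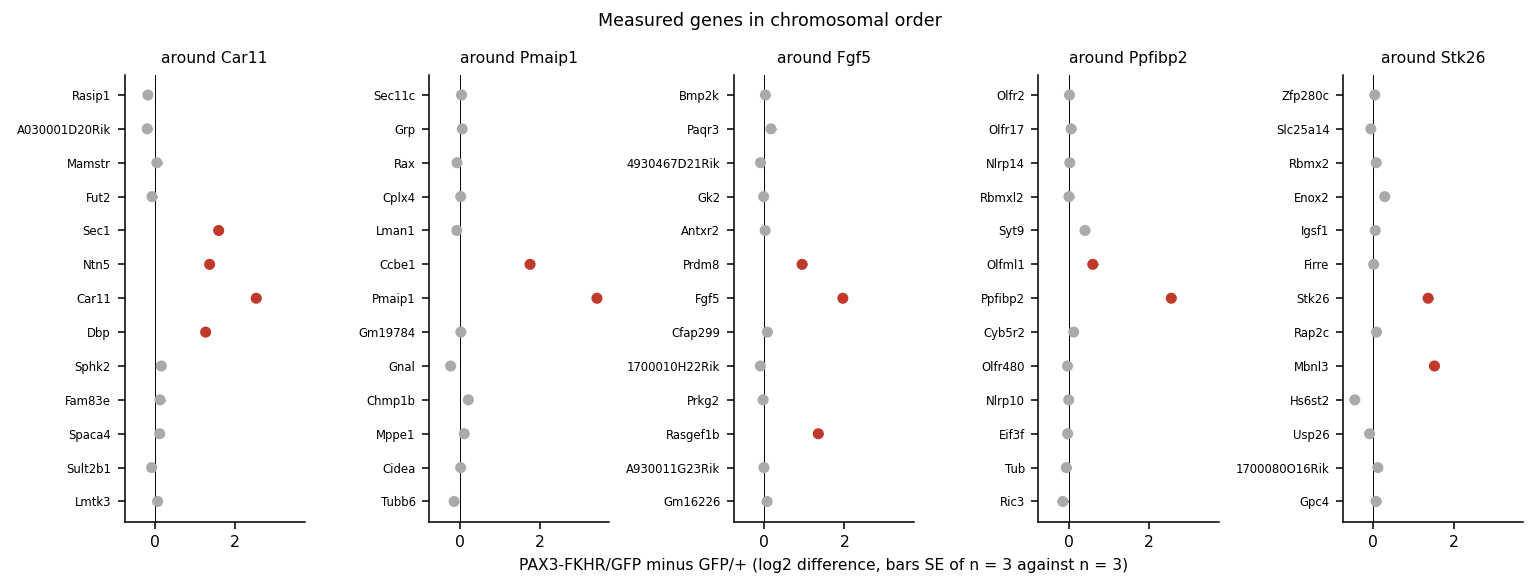
Log2 difference between PAX3-FKHR/GFP and GFP/+ cells with its SE for the measured genes in chromosomal order, from 6 places before to 6 places after the gene named above each panel. Called rises are red and genes not called grey. The 4 genes from Sec1 to Dbp, the pair Ccbe1 and Pmaip1 and the pair Prdm8 and Fgf5 are red, as are Rasgef1b, Olfml1, Ppfibp2, Stk26 and Mbnl3, and the genes in grey lie between -0.464 and 0.404.

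The Pax3 locus itself carries the targeted alleles. Among the 20 measured genes on each side of Pax3, 3 of 40 (7.50%) were called, against 2.02% of all genes. Sgpp2, a sphingosine phosphate phosphatase and second neighbour of Pax3, fell by 0.96 (SE 0.12, adjusted p = 0.00138). Des, which encodes the muscle filament desmin, fell by 0.61 (SE 0.096), and Ap1s3, an adaptor subunit of vesicle coats, rose by 0.99 (SE 0.097, adjusted p = 0.000311). Des was not called without fusion 2 or GFP/+ 2 or 3 (adjusted p 0.0725 to 0.0806) or averaged over probe sets (-0.30). DNA linked to the fusion allele differs between the groups together with the fusion, so the 2 cannot be told apart for genes near Pax3.

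The share of transcription factors called is read beside that of all genes, 1.31% higher and 0.715% lower, and no list was tested against another. In 23 Klf and Sp factors 4 rose and 0 fell, with a list median of 0.046 against -0.0015 over all genes. Sp5 (1.35 ± 0.12) and Klf4, a factor of epithelial barrier and pluripotent cells (1.19 ± 0.092), led them, followed by Klf11 (0.68 ± 0.13) and Klf15 (0.66 ± 0.099). Klf11 held its call only without GFP/+ 2 (adjusted p 0.0671 to 0.172 without any 1 of the others), and Klf15 lost it without fusion 2 or GFP/+ 2 (0.0582 and 0.0509). The count was 2 without fusion 2.

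LIM homeodomain, Dmrt and paired-like homeodomain factors rose in 6 of 34, and 0 fell (median 0.065). Beside Prrxl1 these were Dmrta2 (0.90 ± 0.16), Isl1, a LIM factor of motor and sensory neurons and of lateral mesoderm (0.80 ± 0.098), Uncx, a caudal sclerotome factor (0.73 ± 0.093), Prrx1, a limb and lateral mesoderm factor (0.65 ± 0.11), and Lhx2 (0.62). Lhx2 stood at 3.21 in GFP/+ and 3.83 in fusion cells, both under the background limit of 4.51, and the mean over the probe sets of Prrx1 was under the fold limit (0.46). Only 4 were called without fusion 2 or GFP/+ 2. Dmrta2 and Prrx1 each lost the call without any of several samples, among them those 2 (adjusted p 0.104 to 0.131 and 0.0839 to 0.116). Isl1 and Prrx1 were brighter still in GFP- cells, at means of 9.21 and 9.72, than in fusion cells at 7.51 and 8.86.

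Of 40 forkhead factors 0 rose and 3 fell, and 21 of the 40 differences were above 0 (median 0.001). Foxd1 fell by 0.81 (SE 0.10, adjusted p = 0.00184), and Foxc2 (-0.56 ± 0.10) and Foxc1 (-0.54 ± 0.097), factors of paraxial mesoderm, also fell. Foxd1 was the 1 call left without fusion 1 or 2 or any GFP/+ sample. Without single samples the adjusted p of Foxc1 ran from 0.051 to 0.16 and that of Foxc2, where its call was lost, from 0.0461 to 0.155. At 0.0461 it was the size of the fall that missed its limit. Averaged over probe sets Foxc1 was under that limit too (-0.45). Among 21 Sox factors 0 were called, and Sox11 (0.17 ± 0.086) and Sox4 (0.17 ± 0.13) were the brightest.

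Basic helix-loop-helix factors outside the myogenic family rose in 3 of 49 and fell in 1 (median -0.018), and the neurogenins moved apart. Neurog1, which specifies sensory neurons, had log2 values of 6.99, 7.04 and 6.94 with PAX3-FKHR and 5.90, 5.88 and 5.84 in GFP/+ cells (difference 1.11 ± 0.078). Neurog2, its close relative, had 5.96, 6.5 and 6.42 against 7.04, 7.10 and 7.07 (-0.78 ± 0.13). The second and dimmer Neurog1 probe set was not called (0.05 ± 0.12). Neurog2 lost its call without GFP/+ 1, 2 or 3 (adjusted p 0.0575 to 0.0949). Nhlh2, a factor of young neurons (0.76 ± 0.088), and Hes1, a repressor downstream of Notch (0.68 ± 0.085), rose.

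**Figure D4:**
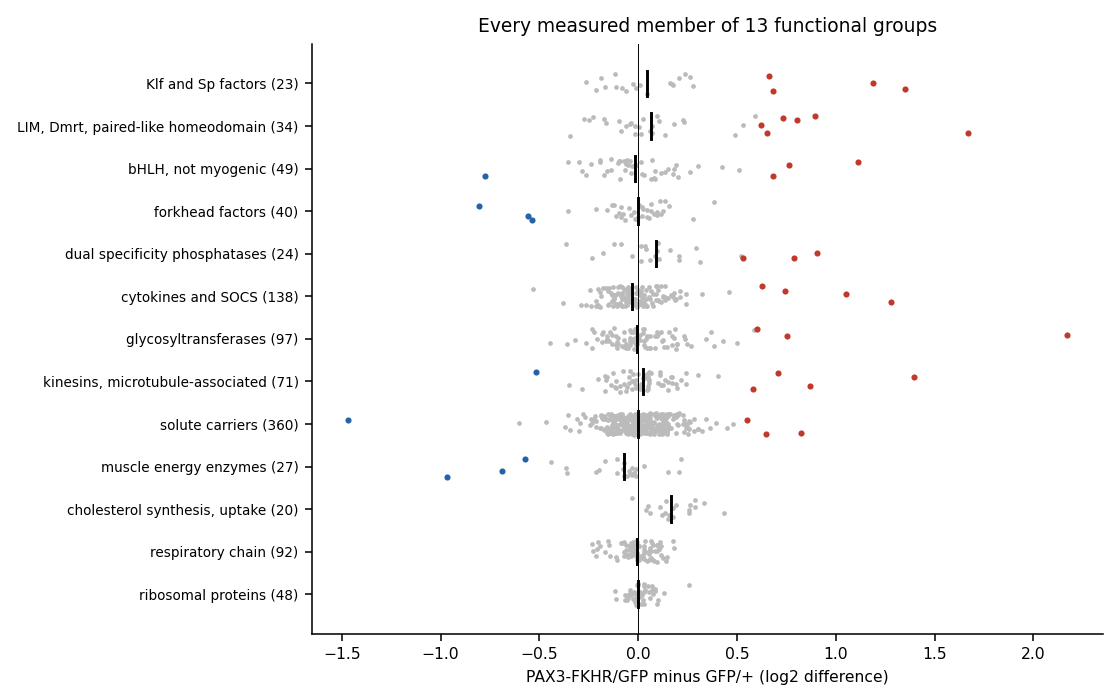
Log2 difference between PAX3-FKHR/GFP and GFP/+ cells for every measured member of 13 functional groups (points, scattered vertically at random for visibility), with called rises in red, called falls in blue and the group median as a black bar. The number measured stands after each name. Calls in the Klf and Sp and the homeodomain groups are all rises, those in forkhead and muscle energy genes all falls, and cholesterol genes sit to the right of 0 without a call (median 0.164).

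Negative regulators of signalling were read from lists of phosphatases and of cytokine genes, against 1.31% of all genes higher. Of 24 dual specificity phosphatases, which switch off MAP kinases, 3 rose and 0 fell (median 0.090), namely Dusp4 (0.90 ± 0.086), Dusp5 (0.79 ± 0.17) and Dusp1 (0.53 ± 0.11). Dusp4 alone was called without fusion 2 or any GFP/+ sample. Where lost, the adjusted p of Dusp5 was 0.102 to 0.247, and that of Dusp1 0.124 to 0.246. Of 138 cytokines, receptors and SOCS proteins 4 rose and 0 fell (median -0.030), and the 4 were Il17rd, an inhibitor of FGF receptor signalling (1.28 ± 0.10), Tnfaip6, a hyaluronan binding protein induced by inflammation (1.05 ± 0.086), and the cytokine signalling inhibitors Socs3 (0.74 ± 0.092) and Socs2 (0.62 ± 0.081). The Socs2 and Socs3 probe sets can be shared between transcripts. With such probe sets left out neither was called, Socs3 at 0.19 (adjusted p = 0.582) and Socs2 at 0.90 with a larger error (SE 0.28, adjusted p = 0.223), and the mean over the probe sets of Socs2 was 0.27.

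Second messenger genes rose in 2 of 37, the adenylyl cyclase Adcy7 (0.82 ± 0.085) and Pde4dip, an anchor of phosphodiesterase at the centrosome (0.74 ± 0.087), and fell in 0 (median -0.029). The share called was 5.41%, against 2.02% of all genes. With shared probe sets left out Adcy7 was read from another probe set, at -0.04 (adjusted p = 0.957), and with the mean over probe sets neither passed the fold limit (0.41 each). Gpr155 and Gpr85 (0.78 ± 0.14) were the 2 of 61 orphan receptors that rose, and 0 fell. Gpr85 lost its call without fusion 2 or 3 or GFP/+ 2 or 3 (adjusted p 0.0836 to 0.141). With shared probe sets left out it was 0.31 (adjusted p = 0.412), and averaged over probe sets 0.39. Rgs5, a regulator of G protein signalling known from pericytes, was the 1 of 21 that fell (-0.60 ± 0.090), though not without fusion 2 (0.0506) or averaged over probe sets (-0.23).

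Of 97 genes that build surface sugars 3 rose, or 3.09% against 1.31% of all genes, and 0 fell (median -0.006). The 3 came down to 1 without fusion 2 or GFP/+ 3. Beside Mgat4a, which branches N-glycans, these were St8sia4 (0.75 ± 0.11) and St8sia2 (0.60 ± 0.094), the enzymes that make polysialic acid on neural cell adhesion molecule. The polysialyltransferases were the less firm calls. St8sia4 was lost without fusion 2 or GFP/+ 2 or 3 (adjusted p 0.0533 to 0.0578), and St8sia2 without fusion 2 or GFP/+ 3 (0.0725 and 0.0646). Chst15, a sulfotransferase of chondroitin sulfate, rose (1.34 ± 0.094), and Fmod, fibromodulin, a small proteoglycan of tendon, fell (-0.77 ± 0.085), among 36 genes of that class. With shared probe sets left out Fmod was not called (-0.26, adjusted p = 0.483), nor was it averaged over probe sets (-0.49). None of 35 heparan sulfate genes was called, the brightest being Sulf2 (0.13 ± 0.10) and Gpc3 (0.02 ± 0.11).

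Among adhesion and guidance proteins 1 or 2 members of a family were called, and all genes had 2.02% called. Tenm2, a teneurin, rose (1.37 ± 0.13) and was the 1 of 7 called, though its 3 other probe sets were not, and the mean over its probe sets was under the fold limit (0.49). Pcdh19 (1.19 ± 0.094) and Pcdh17 (0.89 ± 0.15) were the 2 of 35 protocadherins that rose, the latter not without fusion 1, 2 or 3 or GFP/+ 1 (adjusted p 0.052 to 0.118). Of 35 leucine-rich repeat membrane proteins Lrig1, which lowers ErbB and Met receptors, rose (0.79 ± 0.11) and Lrrn1 fell (-0.51 ± 0.093). Lrig1 was not called without fusion 2 (0.051) and Lrrn1 without any sample but fusion 3 (0.0276 to 0.138), and averaged over probe sets neither was (0.45 and -0.15). Timp3, a metalloproteinase inhibitor, was the 1 call among 72 metalloproteinase genes (0.82 ± 0.085). None of 35 claudin and tight junction genes, 14 gap junction genes or 23 tetraspanins was called.

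In the cytoskeleton, kinesins and microtubule-associated proteins rose in 4 of 71 and fell in 1 (median 0.023). That was 7.04% called, against 2.02% of all genes. Nav3, a neuron navigator (1.40 ± 0.096), Kif26a (0.87 ± 0.074), Tppp3 (0.71 ± 0.091) and Kif5c, a neuronal kinesin (0.58 ± 0.081), rose, and Nav1 fell (-0.52). Kif5c lost its call without fusion 2 or GFP/+ 2 (adjusted p 0.0515 and 0.0513) and was 0.15 averaged over probe sets (adjusted p = 0.472), and the count of falls was 0 without fusion 1 or 2 or any GFP/+ sample. Rab27a, a GTPase of secretory vesicles (1.01 ± 0.12), and Rab3ip (0.62 ± 0.077) were the 2 of 72 Rab genes that rose, and averaged over probe sets both were under the fold limit (0.31 and 0.46). Shroom2 rose among 28 apical scaffold genes (0.63 ± 0.091), but not without fusion 2 or GFP/+ 2 (0.0547 and 0.0533) or averaged over probe sets (0.33).

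Of 360 solute carriers 3 rose and 1, Slc15a2, fell (median -0.003), so that 1.11% were called against 2.02% of all genes. Slc49a4 (0.83 ± 0.099) was the 1 rise left when any sample other than fusion 1 was left out. Of 84 potassium channels only Kcnh2, the cardiac channel HERG, was called (-0.70 ± 0.076), and none of 77 ligand-gated channels and neurotransmitter receptors was. Of 35 voltage-gated calcium and sodium channel genes 2 were called (5.71%), the fall of Cacna2d1 and a rise of Scn3a, a neuronal sodium channel (0.52 ± 0.096). Scn3a kept its call only without GFP/+ 1 (adjusted p 0.0539 to 0.134 without the others), and averaged over probe sets it was 0.18. Carbonic anhydrases gave Car11 and a fall of Car3, the muscle isoform (-0.59 ± 0.086), among 16. Car3 lost its call without fusion 2 or GFP/+ 3 (adjusted p 0.053 and 0.0502), and averaged over probe sets it was -0.30.

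Of 27 genes of muscle energy metabolism 3 fell and 0 rose (median -0.070), or 11.1% called against 2.02% of all genes. Pgam2, muscle phosphoglycerate mutase (-0.97 ± 0.10), Ckb, brain-type creatine kinase (-0.69 ± 0.077), and Eno3, muscle enolase (-0.57 ± 0.080), kept their calls without any 1 sample. General glycolysis did not follow, with 0 of 20 called (median 0.077, Ldha -0.07 ± 0.089 and Pgk1 -0.03 ± 0.10). Klhl41, a ubiquitin ligase adaptor that stabilises sarcomere proteins (-0.87 ± 0.11), and Klhl40 (-0.50) fell. Among the 265 ubiquitin ligase genes measured 4 rose, of which Trim25 (0.77 ± 0.093), Siah2 (0.66 ± 0.094) and Fbxo32, the muscle atrophy gene atrogin 1 (0.64 ± 0.096), had the largest differences. In both directions together 2.26% of the 265 were called, near the share of all genes. The rises came to 2 without fusion 2, where Siah2 lost its call (adjusted p = 0.051), and the falls to 1 without any sample but fusion 3. Averaged over probe sets Siah2 and Fbxo32 were not called (0.45 and 0.21).

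Calls among retinoic acid enzymes went in both directions, and the fall in the enzyme that makes it was not firm. Aldh1a2, which makes retinoic acid in the somite, fell (-0.51 ± 0.088), and Cyp26a1, which degrades it, rose (0.86 ± 0.090, adjusted p = 0.00049). Aldh1a2 stood just past the fold limit and was called only in the full set of samples or without fusion 3. Its adjusted p ran from 0.0138 to 0.131 without the others, the lowest with a difference of -0.43. Nor was Aldh1a2 called by the local pooled error test (-0.44, adjusted p = 0.0511) or with arrays centred on their median (-0.49). Cyp1b1, a further retinoid and steroid hydroxylase, fell (-0.65 ± 0.091), but its 2 other probe sets were not called and the mean over its probe sets was -0.26 (adjusted p = 0.132). These were the 3 calls among 93 cytochrome P450 and aldehyde dehydrogenase genes, or 3.23% against 2.02% of all genes.

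The calls among regulators of chromatin and RNA were single genes, and all genes had 2.02% called. Hdac5, a histone deacetylase of muscle and nerve (0.66 ± 0.080), and Prdm8 were the 2 of 119 chromatin enzymes that rose, and Mbnl3 and Elavl4, an RNA-binding protein of neurons, the 2 of 86 splicing regulators (1.68% and 2.33% called), with 0 falls in either list. Of 336 zinc finger genes of the Zfp series 3 rose (0.893% called), led by Zfp367 (0.73 ± 0.12), which lost its call without fusion 2 or any GFP/+ sample (adjusted p 0.0726 to 0.111). Zfp36, which encodes an RNA-binding protein that destabilises messages (0.51 ± 0.10), lost it without any 1 sample (0.0552 to 0.246), and Zfp945 (0.61 ± 0.077) kept it. Averaged over probe sets Zfp367 was 0.40 and Zfp945 0.22, neither called. Ptprk, a receptor phosphatase, was the 1 of 35 tyrosine phosphatases that fell (-0.65 ± 0.087), and Entpd3, an ectonucleotidase, the 1 of 30 purinergic genes that rose (0.89 ± 0.11). The mean over the probe sets of Ptprk was -0.34 and not called. Dnajb9, a chaperone of the endoplasmic reticulum, rose by 0.52 (SE 0.091) and was the 1 call among 21 genes of the unfolded protein response, of which 19 were above 0 (median 0.072). It was called with all samples or without fusion 1 and with no other sample left out (0.058 to 0.144 elsewhere).

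Large groups of general cell function showed no call. These were 48 cytosolic ribosomal proteins (median 0.001), 44 proteasome (0.002), 92 respiratory chain (-0.008), 56 ciliary and 8 histone genes. Their brightest members included Rpl41 (-0.06 ± 0.099), Cox5b (-0.01 ± 0.099) and Psma3 (-0.02 ± 0.11). Cholesterol synthesis and uptake genes also gave 0 calls of 20, but 19 of the 20 differences were above 0, with a median of 0.164, while 49.5% of all genes were above 0. Hsd17b7 came closest (0.44 ± 0.084, adjusted p = 0.0263), past the p limit and under the fold limit. Of the 56 functional groups 17 had no call, and the groups' 3273 genes held 91 calls (2.78%).

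The brightest genes that changed, read at log2 levels near or above 10, were headed by Plagl1, an imprinted zinc finger factor that rose from 11.21 to 12.30 (1.09 ± 0.098) and was called by all 3 of its probe sets. Itm2a, a membrane protein of early chondrocytes and muscle, rose from 10.19 to 11.56 (1.37 ± 0.11). Nudt4 (0.56 ± 0.10), Rasl11b (0.55 ± 0.11), Pdgfc, a PDGF receptor ligand (0.60 ± 0.11), and Tubb2b, a neural tubulin (0.52 ± 0.10), rose less, and all 4 lost their calls without fusion 2 or 3 or any GFP/+ sample (adjusted p 0.0632 to 0.206). Cxcl12, the chemokine that guides migrating progenitors, fell from 11.31 to 10.43 (-0.89 ± 0.093). Actc1, cardiac actin of the early myotome, fell by 0.86 (SE 0.095). Nr2f1 (-0.56 ± 0.10), Selenop (-0.53 ± 0.098) and Meg3, the noncoding RNA next to Dlk1 (-0.52 ± 0.096), were near the fold limit and lost their calls without any 1 sample but fusion 3 (adjusted p 0.00758 to 0.167, the low ones with a difference under the limit). Dimmer Meg3 probe sets were called with all samples at -0.78, -0.70, -0.65 and -0.54, and the rest (-0.50 to -0.21) were not.

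Markers of the cell types that the sort could hold were set beside these results. Of all genes 1.31% were called higher and 0.715% lower. The 3 fusion values all lay above those of GFP/+ in 7.67% of genes and all below in 6.89%. Of 16 myotome markers 12 fell, and their summed level was 10.69 to 10.88 in fusion, 11.90 to 12.03 in GFP/+ and 10.86 to 10.97 in GFP- samples (log2). The near sums of fusion and GFP- cells did not hold gene by gene. Actc1, Tnni1, Tnnc1 and Myl4 averaged higher in GFP- cells (9.94, 7.89, 7.56 and 7.13) than in fusion cells (9.53, 6.16, 6.42 and 4.92). Myog, Myh3, Tnnc2 and Myf6 averaged lower in GFP- cells (3.77, 3.19, 3.59 and 4.45) than in fusion cells (7.21, 6.65, 6.56 and 5.94). Of 13 dermomyotome markers Pax7, Myf5, Tcf15, Lbx1 and Met rose (0.67, 0.89, 0.92, 1.42 and 1.70) and Pax3 and Sim1 fell (-0.91 and -0.66), with sums of 12.53 to 12.83 against 12.39 to 12.41. This list holds the targeted gene, and the study places Pax7, Myf5, Lbx1 and Met downstream of Pax3. Its sum is therefore no measure of how many dermomyotome cells were sorted. In 11 sclerotome markers Uncx rose and Pax1 (-0.57 ± 0.086), Foxc1 and Foxc2 fell. Their sums were 11.22 to 11.42 in fusion and 11.60 to 11.72 in GFP/+ samples, without overlap. Averaged over probe sets Sim1 (-0.43) and Pax1 (-0.47) were under the fold limit. The other Lbx1 probe set, of like level in GFP/+ cells (5.66 against 5.78), was not called (0.21 ± 0.12). The number of sclerotome falls was 0 without fusion 2, GFP/+ 2 or GFP/+ 3.

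Neural crest markers were present in both groups, which the study's methods allow for. The summed level of the 11 measured was 11.86 to 12.12 with PAX3-FKHR and 11.72 to 11.74 in GFP/+ cells, without overlap, and 10.38 to 10.42 in GFP- cells. Tfap2b was called, with log2 values of 9.62, 9.70 and 9.86 against 9.15, 9.13 and 9.13 (difference 0.59 ± 0.084), though not without GFP/+ 2 or 3 (adjusted p 0.0533 and 0.0511). Tfap2a was just under the fold limit (0.45 ± 0.080, adjusted p = 0.0157), and Erbb3 just above the p limit (0.48 ± 0.11, adjusted p = 0.0546). The crest factors Sox10 (9.54 to 9.72 against 9.40 to 9.58) and Foxd3 (6.94 to 7.32 against 6.68 to 6.91) were not called. Among neuronal genes called in other lists, Prrxl1, Neurog1, Nhlh2, Isl1 and Elavl4 (0.84 ± 0.094) were higher. Neurog2, Pax6 and Clstn2 were lower. Nhlh2, Isl1 and Elavl4 were brightest in GFP- cells, at means of 6.49, 9.21 and 8.31. Prrxl1 and Neurog1 were not, at 4.33 and 5.93. The part of the crest cells in these values was not tested.

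Of 14 neural tube markers Neurog1 rose and Neurog2 and Pax6 (-0.74 ± 0.092) fell. The 4 other probe sets of Pax6 were not called, and the mean over its probe sets was -0.19 (adjusted p = 0.301). The sums overlapped at 10.47 to 10.68 and 10.55 to 10.58. The erythroid sum was 10.98 to 11.18 with the fusion and 10.52 to 10.59 without, against 15.16 to 15.17 in GFP- cells. Hbb-y, an embryonic globin, was the 1 of 9 erythroid markers called (0.65 ± 0.093), though not without fusion 2 or GFP/+ 2 or 3 (adjusted p 0.053 to 0.0632) or with shared probe sets left out (0.45). Isl1 and Prrx1 were the 2 of 14 lateral and intermediate mesoderm markers called, with sums of 9.70 to 9.97 against 9.37 to 9.42. Of all genes 2.02% were called. Hand2, Gata6 and Tbx5 stayed between 3.98 and 5.15 in both groups. None of 13 endothelial, 10 leukocyte or 16 ectoderm and endoderm markers was called. Ptprc, the defining leukocyte marker, stood at 2.97 to 3.11 in both groups.

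**Figure D5:**
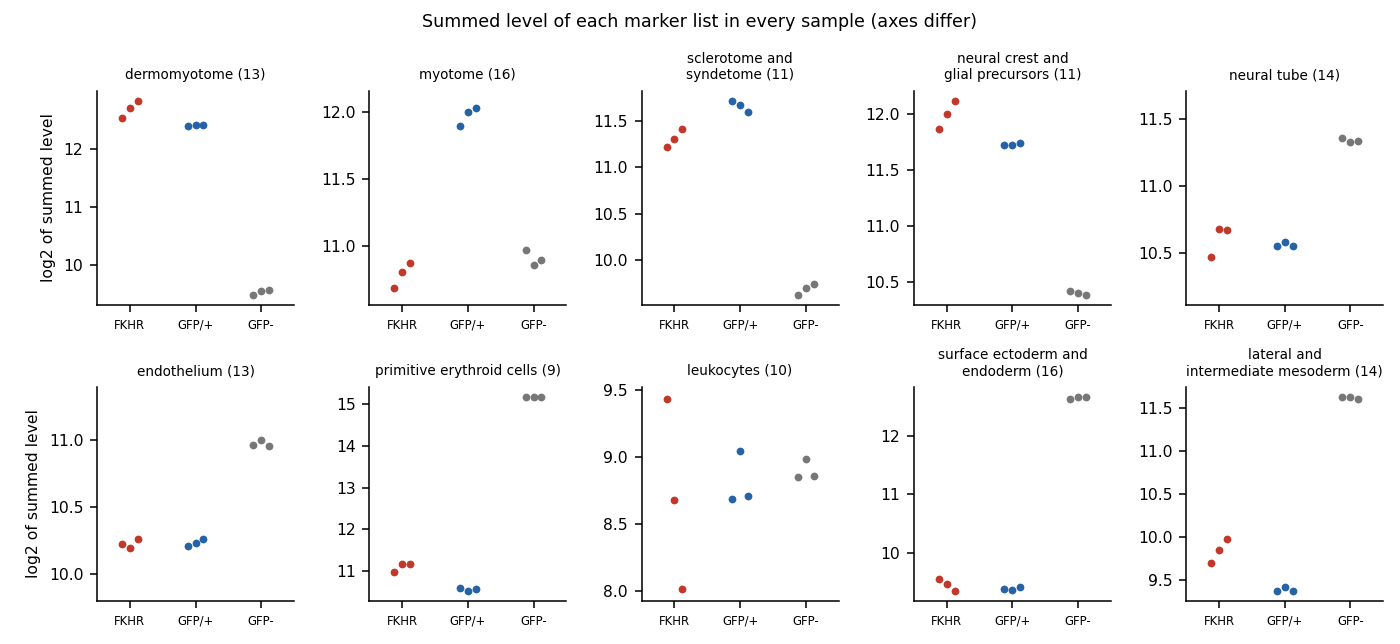
Log2 of the summed level of each marker list in each PAX3-FKHR/GFP (FKHR, red), GFP/+ (blue) and GFP- (grey) sample, with the number of measured markers after each name and a vertical axis of its own for each list. Myotome sums are lower with PAX3-FKHR (10.69 to 10.88 against 11.90 to 12.03), as are sclerotome sums (11.22 to 11.42 against 11.60 to 11.72). Dermomyotome, neural crest, erythroid and lateral mesoderm sums are higher without overlap, as are the 3 values of 7.67% of single genes. The dermomyotome list includes Pax3 itself. The leukocyte sum is scattered, from 8.01 to 9.44 in fusion samples.

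Some technical measures also moved with the groups. The log2 difference between the 3′ and 5′ control probe sets of Gapdh, which grows with RNA degradation or incomplete amplification, was 1.55 to 1.70 in fusion and 1.75 to 2.01 in GFP/+ samples. That of beta-actin was 1.36 to 1.43 and 1.45 to 1.70. GFP/+ 1 had the largest value of both. Without that sample 198 genes were higher and 103 lower, and 189 and 97 of them were among the genes called with all samples. The part of this difference in the results was not tested. Xist, expressed from the inactive X chromosome, had values of 9.59 to 9.86 against 10.01 to 10.20, and the Y-linked Eif2s3y 0.14 ± 0.082 as its log2 difference. Neither was called (adjusted p = 0.162 and 0.635), nor were Kdm5d (0.16 ± 0.095) and Uty (0.13 ± 0.092).

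Probe sets without a gene name held further changes. Of 9160 such probe sets 22 were higher and 27 lower. Both are smaller shares than over all 45037 probe sets, where 0.884% were higher and 0.473% lower. The largest fall among them had log2 values of 4.73, 5.29 and 5.0 with PAX3-FKHR and 7.32, 7.33 and 7.18 in GFP/+ cells (difference -2.27 ± 0.13), a larger fall than that of any named gene. The next 2 falls (-1.26 ± 0.12 and -1.13 ± 0.096) came from probe sets that can be shared between transcripts. The 3 largest rises had differences of 1.58 ± 0.10, 1.34 ± 0.14 and 1.21 ± 0.091. The platform annotation used here gives these probe sets no symbol.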

How the data were processed

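Cells of 3 groups, with 3 samples in each, were hybridized to Affymetrix mouse arrays after a two-cycle 3′ amplification. The authors deposited log2 expression values made with RMA, which corrects background, brings the arrays to 1 distribution and summarises each probe set, so a shift of all transcripts would be hidden. The RMA version is not given in the sources used here, and absence calls were not used. Of 45101 probe sets, 64 control probe sets were dropped. In the platform annotation 34945 of the rest had 1 symbol, 932 several and 9160 none. Each gene was read from its brightest single-symbol probe set over all 9 arrays, and 9010 genes had a choice.

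PAX3-FKHR/GFP and GFP/+ samples were compared with limma 3.58.1 in R 4.3.3 (intensity trend, two-sided, Benjamini-Hochberg over 45037 probe sets) and called at an adjusted p under 0.05 and a log2 difference of at least 0.5. Errors after ± are SE of a log2 difference, n = 3 against 3. The study used a local pooled error test, run here as an alternative with 1 sample left out, a replicate block, all 9 arrays, no trend, median centring and other probe set choices. The fit was tested on simulated data.

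Named genes are the 30 largest rises and 25 largest falls, up to 4 called genes of each of 56 functional lists, or the 2 brightest of a list without calls, the 8 brightest called genes a direction, called genes of 10 marker lists, Pax3, Foxo1, sex-linked transcripts and 3 unnamed probe sets a direction. Neighbouring genes and motifs were added after values were seen. The comparison and the lists were chosen with earlier results of these data known, and 6 list symbols were matched through older names. The result of 1 functional list is not reported here. The annotation and promoters of RefSeq (GRCm38.p6) served for names, gene order and upstream sequences. No build is named in the data.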

Additional observations from a re-analysis of the deposited data

How the results depend on the processing

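Pax3 was lower under each alternative run, though at a log2 limit of 1 it is not called (-0.911). Leaving out 1 sample gave 148 to 248 genes higher and 80 to 119 lower, against 238 and 130, with the fewest without fusion 2. That limit gave 71 and 27 genes. Same-numbered deviations correlated at 0.0055, 0.0794 and -0.0957, and differently numbered ones at -0.1069 to 0.0793. No pairing by replicate number was seen, though deviations from means of 3 arrays cannot exclude it. A fit with the replicate block gave 234 and 124. The other alternatives, among them the local pooled error test (269 and 136) and the mean over probe sets (205 and 98), were within 1.5 times. Of the 368 called genes 161 lost their call without at least 1 sample. The log2 difference of Adcy7 turned to -0.038 with shared probe sets left out, where another probe set reads it. RMA hides a shift of all transcripts, dim genes have compressed differences, and pools of embryos carry no measure of animal variation.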
